A study of Mus musculus with 16 samples.

Results

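The canonical Wnt receptors and transducers were followed in intestinal stem cells (ISCs) of mice after vertical sleeve gastrectomy (VSG), an operation that removes most of the stomach along its greater curvature, or after sham surgery. The set holds 10 genes, taken by gene symbol from tables that each list 48440 genes: the Frizzled receptors Fzd5 and Fzd7, the co-receptors Lrp5 and Lrp6, the Dishevelled adaptors Dvl1, Dvl2 and Dvl3, Ctnnb1, which encodes β-catenin, and the T cell factor genes Tcf7l2 and Tcf7. All 10 were found in each table, 1 row each, and all 10 passed the filter on low values in every segment. Tcf7 passed it in the ileum through 1 VSG library alone. They were chosen by name and by no rule on their response to surgery, though with earlier results of these data known.

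The mice were female and carried Lgr5-EGFP, in which green fluorescent protein (GFP) is expressed from the locus of the stem cell gene Lgr5. VSG and sham mice alike had 16 weeks of a 60% high-fat diet before surgery, and their cells were taken 4 weeks after it. Ages were given as 8 to 16 weeks for the animals in general, with no step named. After an overnight fast the mice received a liquid meal, were killed 15 minutes later, and 6 cm each of duodenum, jejunum and ileum was dissociated and sorted for GFP, after removal of CD45+, CD31+, annexin V+ and dead cells. GFP marks stem cells together with progenitors, so each library is an average over both. The series has 16 polyadenylated RNA-Seq libraries from 7 mice, each 1 segment of 1 mouse. The same 6 mice gave 4 VSG and 2 sham libraries in both duodenum and jejunum, whereas only 2 VSG (replicates 4 and 5) and 2 sham libraries represent the ileum. Within a surgery a replicate number stands for 1 mouse throughout, and a VSG mouse never shares an animal with the sham mouse of its number.

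Wnt ligands bind a Frizzled receptor and an LRP5 or LRP6 co-receptor at the cell surface. Dishevelled is then recruited and the complex of AXIN, APC and the kinases GSK3 and CK1, which otherwise marks β-catenin for degradation, is held back. β-Catenin accumulates, enters the nucleus and acts with TCF/LEF factors on target genes. In the intestinal crypt this pathway keeps Lgr5+ stem cells dividing, and Paneth cells and cells of the surrounding stroma supply the ligands.

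Values are normalized counts, which the authors scaled within each segment, so that libraries can be compared within a segment and levels of different segments are only set side by side. Depth was implied by the most frequent value above 0 in each library, taken as 1 read. It was 33.7 to 63.6 M reads per duodenal library, 22.2 to 57.8 M per jejunal library and 10.9 to 36.4 M per ileal library. Lgr5 was listed at 0 in sham replicate 1 of the jejunum and of the ileum, against 2053 and 152 in sham replicate 2. Fabp6, an ileal bile acid carrier, reached 196951 normalized counts in 1 jejunal library, VSG replicate 1, and was at 15.8 to 313 in the other jejunal libraries. The ileal libraries themselves had 29162 to 208801. Markers of differentiated cells were present in every segment. The 8 enterocyte markers summed to 294679 to 562497 in duodenal VSG libraries against 657611 and 962974 in sham libraries, and to 343454 to 771991 against 665223 to 1857084 in the jejunum. The 6 tuft cell markers summed to 15655 to 33868 after VSG and 4728 to 11935 after sham surgery in the duodenum. No defining marker of either list was at 0 in all libraries of a segment. VSG and sham did not overlap in these duodenal sums, and the part of such cells in the values below was not tested. In sorted bulk samples, fewer cells of a type and less RNA per cell cannot be told apart.

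β-Catenin mRNA was by far the most abundant of the 10 per length. Ctnnb1 had 5907.5 ± 578 normalized counts per kb of exon in the duodenum (SD, n = 6), 4596 ± 925 in the jejunum (n = 6) and 3095 ± 587 in the ileum (n = 4). It was above Fzd5 in all 16 libraries, and its level per kb lay above that of 96.1% to 97.8% of the genes tested in each library. Fzd5, a Frizzled receptor known for its role in Paneth cell maturation, followed in the mean of each segment, at 1619 ± 286, 1279 ± 260 and 647 ± 188 per kb in the duodenum, jejunum and ileum. Dvl1 came next, at 1298 ± 333, 856 ± 357 and 421 ± 276 per kb. Fzd5 was above Dvl1 in 6 of 6 duodenal, 5 of 6 jejunal and 3 of 4 ileal libraries, so their order held in the means but not in every library.

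The other 7 genes lay closer together. Lrp5 led them in the duodenum and jejunum, at 470.4 ± 40.7 and 353 ± 76.4 per kb, and stood above the next gene in 6 of 6 libraries of each. Below it in the duodenum, Fzd7, Dvl3 and Lrp6 had means of 289, 287 and 285 per kb and swapped places from library to library, so their order is not set. Tcf7l2 (249 ± 98.2), Tcf7 (172 ± 73.6) and Dvl2 (169 ± 58.7) came last there and also overlapped. In the ileum Lrp6 and Lrp5 (255 ± 206 and 220.3 ± 88.0) exchanged places in 2 of 4 libraries, and Tcf7 was at the bottom with 14.5 ± 28.9 per kb.

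**Figure D1:**
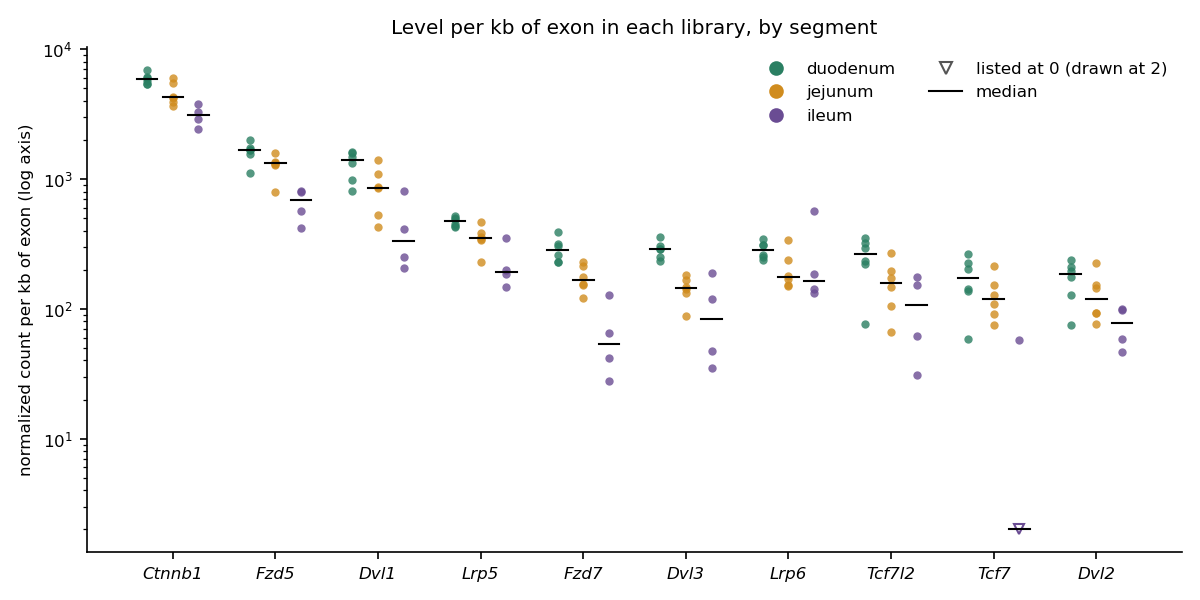
Normalized count per kb of exon (log axis) for each gene, 1 point per library, coloured by segment, with the median as a black line. Ctnnb1 sits above the other 9 genes in all segments, followed by Fzd5 and Dvl1, and Tcf7 is listed at 0 in 3 of the 4 ileal libraries, which share 1 open triangle drawn at 2.

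One gene made up most of the Frizzled and of the Dishevelled level. Of the summed level per kb of all 10 Frizzled genes, Fzd5 held 60.7% to 75.7% in the duodenal libraries, 69.4% to 79.9% in the jejunum and 64.3% to 86.2% in the ileum. Fzd7 was the next in the duodenum and jejunum, with 8.55% to 17.2% and 6.06% to 14%, and held 3.02% to 14.5% in the ileum. Dvl1 held 62.4% to 83.8% of the 3 Dishevelled genes in the duodenum, 65.2% to 82.3% in the jejunum and 53.8% to 81.5% in the ileum. Among the 4 TCF/LEF genes, Tcf7l2 and Tcf7 shared nearly the whole level in the duodenum and jejunum, with Tcf7l2 at a median of 60.4% and 61.0%. Lef1 and Tcf7l1 had medians of 0% in every segment, and Lef1 was listed at 0 in all jejunal and ileal libraries. Exonic bases shared with a neighbouring gene on the other strand touch some of these levels: 18.3% of the exon bases of Dvl2 lie over Acadvl, which had a mean of 16592 normalized counts in the duodenum, 17.8% of those of Fzd5 over Gm38058 (mean 50.7) and 14.6% of those of Ctnnb1 over Ulk4 (mean 38.2). The library kit keeps the strand, but the strand setting used in quantification was not given in the sources used here, and whether reads over those bases were told apart was not tested.

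The 10 genes are spread over 7 chromosomes of GRCm38 (GENCODE M21). Fzd5 lies at chr1:64730558-64737751 on the minus strand and Fzd7 at chr1:59482424-59486955 on the plus strand. Lrp5 is at chr19:3584828-3686564 (minus) and Lrp6 at chr6:134446476-134566965 (minus). The Dishevelled genes are at chr4:155847402-155859303 (Dvl1, plus), chr11:70000595-70012301 (Dvl2, plus) and chr16:20516982-20534010 (Dvl3, plus). Ctnnb1 is at chr9:120929216-120960507 (plus), Tcf7l2 at chr19:55741820-55933654 (plus) and Tcf7 at chr11:52252371-52283014 (minus).

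Promoter windows from RefSeq on GRCm38.p6, read here over the 250 bases before the start, were at hand for 8 of the 10 genes (11 windows). A TCF binding motif, ATCAAAG on either strand, was in 0 of the 11 windows and in 3.21% of all 32851 windows, which says only that these letters are not in these windows. The GC box GGGCGG, bound by SP1 family factors, was found on either strand in windows of all 8 genes, in 10 of 11 windows, against 32.7% of all windows. The 120 bases before the start are shown for the most abundant adaptor, the β-catenin gene and the most abundant receptor, 5′ to 3′ on the strand of the gene, with GC boxes of either strand in capitals, where boxes that overlap or touch run together. They are Dvl1 at chr4:155847282-155847401 (plus strand), the first of the Ctnnb1 windows at chr9:120933280-120933399 (plus strand) and Fzd5 at chr1:64737751-64737870 (minus strand).
Dvl1: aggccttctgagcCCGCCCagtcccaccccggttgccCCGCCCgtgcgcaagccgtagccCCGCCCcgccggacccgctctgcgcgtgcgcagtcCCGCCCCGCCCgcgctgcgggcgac
Ctnnb1: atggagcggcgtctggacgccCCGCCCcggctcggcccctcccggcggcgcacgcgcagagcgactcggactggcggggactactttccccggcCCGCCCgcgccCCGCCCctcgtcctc
Fzd5: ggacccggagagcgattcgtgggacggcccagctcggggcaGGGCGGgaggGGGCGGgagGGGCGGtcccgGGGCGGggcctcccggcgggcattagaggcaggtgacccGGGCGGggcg
The stretches of Dvl1 and Fzd5 hold 5 GC boxes each and that of Ctnnb1 holds 3, and G and C make up 80.8%, 80.8% and 80.0% of their bases. Over the 250 bases G and C make up 71.2%, 76.4% and 74.8%, beside a median of 52.4% over all windows. The part of base content in the GC box count was not tested.

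The design asks whether VSG shifts these genes in ISCs of each segment. In no segment was any of the 10 called by limma, which fits a linear model to each gene and borrows variance from the others, on log2(normalized count + 1). A call needed p under 0.05 with adjusted p under 0.2, a mean above 50 and a log2 fold change beyond 0.5 in either direction. Calls were rare over all genes too, at 0.0237%, 0.0126% and 0% of those tested in duodenum, jejunum and ileum. At an unadjusted p under 0.05 limma had 0, 1 and 0 of the 10 in the duodenum, jejunum and ileum, against 6.27%, 6.04% and 3.28% of all genes tested, and limma without a variance trend called 0 of the 10 in each segment. VSG and sham libraries did not overlap for 1 of 10 duodenal (Lrp5), 3 of 10 jejunal (Fzd5, Lrp5 and Dvl1) and 2 of 10 ileal genes (Fzd5 and Lrp5), against 14.4%, 12.8% and 28.6% of all genes. These counts were near the share of all genes, other than 3 of 10 in the jejunum, a larger share on a small count.

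The 10 had no common direction. Log2 fold changes of VSG over sham were positive for 6 duodenal, 4 jejunal and 3 ileal values of the 10, against 50.7%, 55% and 57% of all genes tested. The ileal 3 include Tcf7, whose sign could not be negative with both sham libraries at 0. The median log2 fold change of the 10 was 0.17, −0.07 and −0.37, beside medians over all genes of 0.01, 0.11 and 0.24. With each library scaled to the same total, 7, 6 and 3 of the 10 were above 0 and the jejunal median became 0.16. These medians also moved with single sham libraries: without sham replicate 2 the duodenal, jejunal and ileal medians were −0.04, 0.14 and 0.35, and without sham replicate 1 they were 0.03, −0.26 and −0.74.

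**Figure D2:**
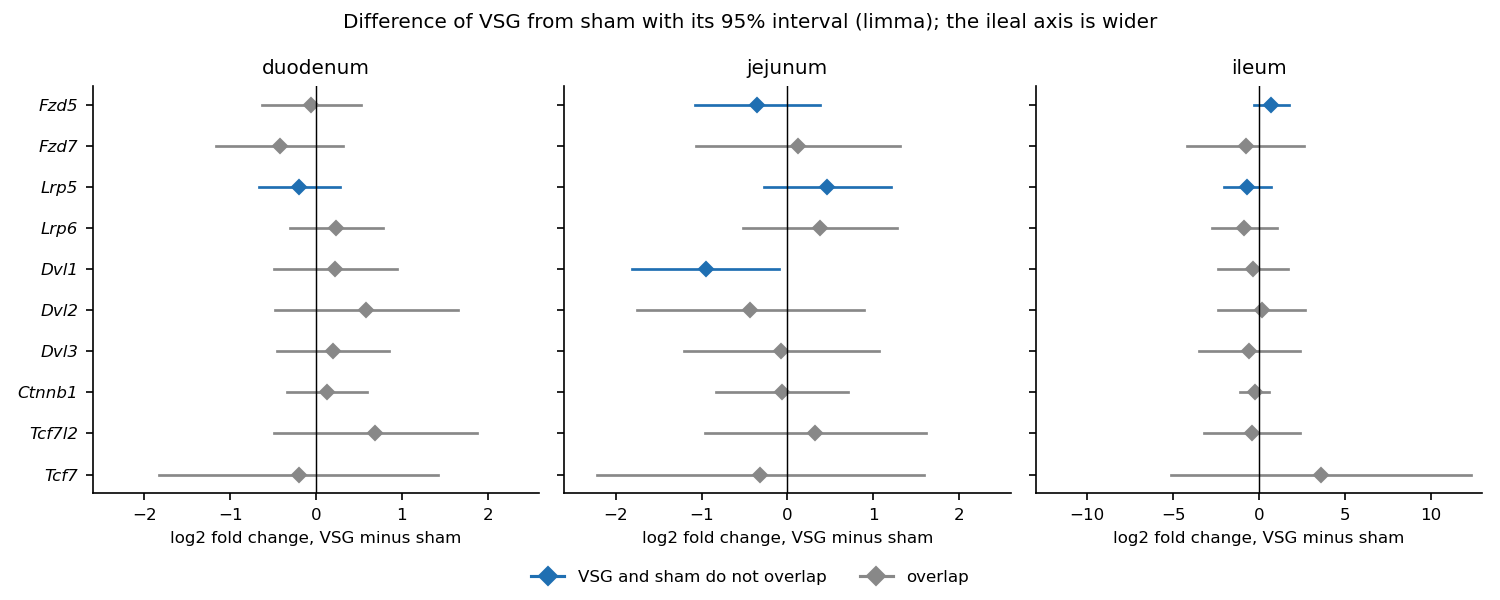
Log2 fold change of VSG minus sham for each gene with its 95% interval from limma, by segment, the ileal axis being wider. Blue marks genes whose VSG libraries are all above or all below every sham library. The interval leaves out 0 for Dvl1 in the jejunum (−1.81 to −0.09) and includes it for all others.

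The principal Frizzled receptor was lower after VSG in the jejunal libraries and higher in the ileal ones. Fzd5 had 7732, 13764, 11456 and 11556 normalized counts in VSG replicates 1 to 4 of the duodenum and 11936 and 10748 after sham surgery. The groups overlapped there, with the lowest and the highest value both after VSG. In the jejunum it had 5526, 8842, 9065.5 and 9187 after VSG and 11016 and 9413 after sham surgery. All VSG libraries lay below both sham libraries, VSG replicate 1 far below the other 3, and the log2 fold change was −0.35 (SE 0.33, limma adjusted p = 0.800), or −0.17 without VSG replicate 1, the library that holds Fabp6. Ileal values were 5538 and 5525 after VSG against 2878 and 3946, all higher after VSG, with a log2 fold change of 0.71 (SE 0.41, limma adjusted p = 0.736). With 2 libraries against 2 an exact permutation test cannot give a p below 0.333, which is what Fzd5 gave.

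Fzd7, a receptor known to be needed in Lgr5+ stem cells, was not separated in any segment. Its duodenal values were 1436, 1048, 1177 and 1035 after VSG and 1767 and 1383 in sham mice, with a log2 fold change of −0.43 (SE 0.33, limma adjusted p = 0.880) in which only VSG replicate 1 reached into the sham range. Jejunal values ran from 687 to 1037 after VSG and were 549 and 967 after sham surgery. Ileal values were 294 and 127 against 189.8 and 582. The ratio of Fzd7 to Fzd5 per kb was 0.0350 and 0.0810 in ileal VSG libraries against 0.101 and 0.225 in sham libraries, whereas VSG and sham overlapped in this ratio in the duodenum (0.116 to 0.283 and 0.196 to 0.226) and the jejunum.

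**Figure D3:**
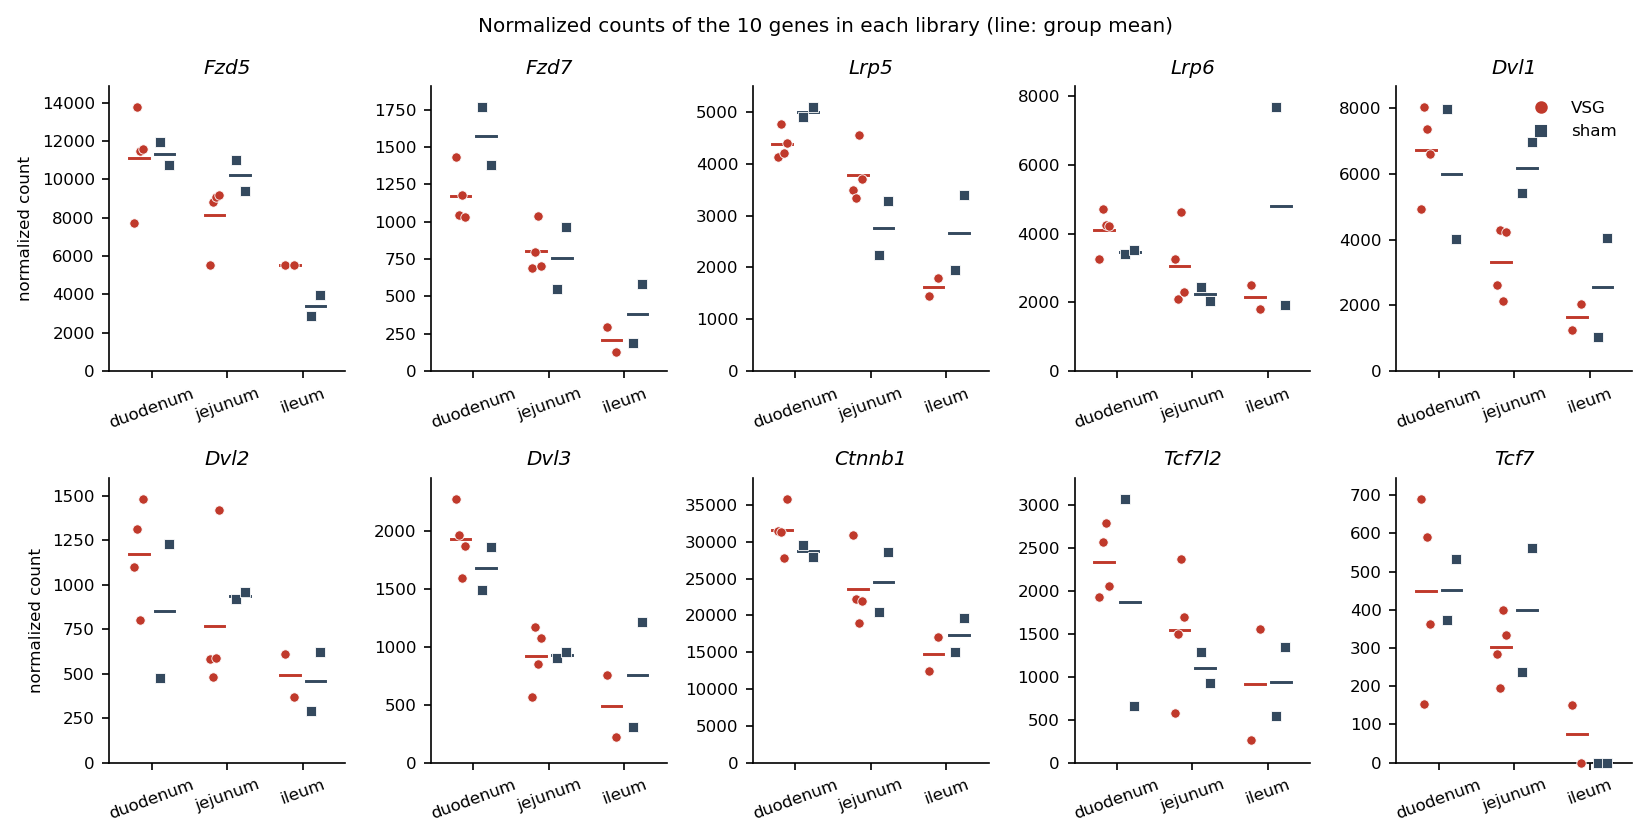
Normalized counts of each gene in each library (points, VSG circles and sham squares) by segment, with the group mean as a line and each panel starting at 0. VSG and sham points are apart for Lrp5 in all 3 segments, for Fzd5 in the jejunum and ileum and for Dvl1 in the jejunum.

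Lrp5 was the only 1 of the 10 whose VSG and sham libraries did not overlap in any segment, and the side changed from segment to segment. In the duodenum it had 4120.4, 4770.5, 4201 and 4402 normalized counts after VSG and 4899 and 5091 after sham surgery. Every VSG library was below both sham libraries, by little: the log2 fold change was −0.19 (SE 0.21, 95% interval −0.67 to 0.28, limma adjusted p = 0.908). In the jejunum the values were 3502, 3339.9, 4547 and 3712 after VSG and 2245 and 3285.5 after sham surgery. Here every VSG library was above both sham libraries, VSG replicate 2 narrowly, and the log2 fold change was 0.46 (SE 0.33, 95% interval −0.28 to 1.21, limma adjusted p = 0.760). The exact permutation test gave p = 0.133 in the duodenum and p = 0.0667 in the jejunum, the latter the smallest possible with 4 against 2. In the ileum Lrp5 had 1444 and 1802 after VSG and 1942 and 3391 in sham mice, with a log2 fold change of −0.67 (SE 0.56, limma adjusted p = 0.736) that was −0.27 without sham replicate 2 and −1.07 without sham replicate 1. The jejunal value depended on the sham library. Without sham replicate 1, the library with Lgr5 at 0, it was 0.19, and it met the call rule only without sham replicate 2, where it rests on sham replicate 1 alone (log2 fold change 0.74, limma adjusted p = 0.189).

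Lrp6, the co-receptor with the same role, was not separated. Its duodenal values were 3253, 4719.7, 4257 and 4235 after VSG and 3412 and 3524 after sham surgery, and 3 of 4 VSG libraries were above both sham libraries (log2 fold change 0.23, SE 0.24, limma adjusted p = 0.892). In the jejunum it ran from 2087 to 4623 after VSG and was 2456 and 2053 after sham surgery. In the ileum sham replicate 1 had 7683, against 1929 in sham replicate 2 and 2521 and 1805 after VSG, so that the ileal log2 fold change of −0.85 (SE 0.76) became 0.15 without that library. The ratio of Lrp6 to Lrp5 per kb in the duodenum was 0.562 to 0.722 after VSG against 0.493 and 0.496 after sham surgery, which did not overlap. The ratio overlapped in the jejunum (0.443 to 0.724 against 0.445 and 0.779) and ileum (0.713 and 1.24 against 0.405 and 2.82).

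Dvl1, the main Dishevelled adaptor, showed the greatest departure among the 10 genes in the jejunum. It had 2634, 4299, 2120.3 and 4223 normalized counts after VSG and 5419 and 6962 after sham surgery. All 4 VSG libraries were below both sham libraries, with means of 3319 ± 1108 (SD, n = 4) and 6190.3 ± 1091 (n = 2). The log2 fold change was −0.95 (SE 0.39, 95% interval −1.81 to −0.09), a fold of 0.517. The unadjusted p in limma was 0.0330 and the adjusted p over 15857 genes 0.760, and the exact permutation test gave p = 0.133. It stayed between −1.13 and −0.72 under the alternatives, with adjusted p-values in limma of 0.495 to 0.934, so the sign held and the call did not arise. In the duodenum the same mice had 4926, 8031.5, 7360.0 and 6610.2 after VSG and 7964 and 4023 in sham mice, with a log2 fold change of 0.23 (SE 0.32) with the groups overlapping. Ileal values were 1256 and 2054 after VSG against 1032 and 4061.5.

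The less abundant adaptors did not separate. Duodenal Dvl2 was at 1100.0, 1314, 801 and 1484 after VSG and at 474 and 1227 in sham mice, with a log2 fold change of 0.59 (SE 0.47, limma adjusted p = 0.880) that was −0.10 without sham replicate 1. In the jejunum 3 of 4 VSG libraries (479 to 586) were below the sham libraries (918 and 958), and VSG replicate 4 was above them at 1421. Dvl3 ran from 1597 to 2277 after VSG and was 1489 and 1861 after sham surgery in the duodenum (log2 fold change 0.20, SE 0.29), and from 563 to 1173 against 905 and 951 in the jejunum (−0.07, SE 0.51). As a share of the 3 Dishevelled genes per kb in the jejunum, Dvl1 was lower and Dvl3 higher in every VSG library than in either sham library. Shares are parts of 1 sum, so a lower Dvl1 raises those of the others, and the counts of Dvl3 itself overlapped.

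VSG and sham libraries overlapped for Ctnnb1 in every segment. It had 31526, 31345, 27775 and 35863 normalized counts after VSG in the duodenum and 29528 and 27993 in sham mice, with a log2 fold change of 0.13 (SE 0.21, 95% interval −0.33 to 0.60, limma adjusted p = 0.912). In the jejunum VSG replicate 1 had 30985 and the other VSG libraries 22192, 19012 and 21902, with 20453 and 28627 after sham surgery (log2 fold change −0.06, SE 0.35). Ileal values were 12491 and 17032 against 15065 and 19694 (−0.24, SE 0.34). The duodenal interval corresponds to folds of 0.793 to 1.51. β-Catenin is controlled largely at the protein level, which these libraries do not measure. In the jejunum the sign turned with the scaling, to 0.08 under quantile normalization and to 0.16 with equal totals.

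The 4 transducers (Dvl1, Dvl2, Dvl3 and Ctnnb1) all had log2 fold changes above 0 in the duodenum and below 0 in the jejunum. Of these 8 values 0 were called by limma and 1, jejunal Dvl1, had an unadjusted p under 0.05. The duodenal count of 4 of 4 was the same under quantile normalization and with equal totals. It became 3 of 4 without either sham library, where Dvl2 was −0.10 (without sham replicate 1) or Dvl1 −0.27 (without sham replicate 2). In the jejunum 1 of 4 was above 0 under quantile normalization and 2 of 4 with equal totals. There 0 of 4 were above 0 without sham replicate 1 and 1 of 4 without sham replicate 2. The 4 receptors gave 1 of 4 above 0 in the duodenum and 3 of 4 in the jejunum.

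Tcf7l2, the main TCF of the intestinal epithelium, was split by its sham libraries in the duodenum. They had 3079 and 666 normalized counts, the highest and the lowest of the segment, around 1929.9, 2568, 2798 and 2055 after VSG. The log2 fold change of 0.69 (SE 0.53, limma adjusted p = 0.880) was therefore 1.79 without sham replicate 1, where it met the call rule (limma adjusted p = 0.121), and −0.41 without sham replicate 2. In the jejunum Tcf7l2 had 584, 1503, 2377 and 1702 after VSG and 1287.5 and 931 after sham surgery, and 3 of 4 VSG libraries were above both sham libraries (log2 fold change 0.33, SE 0.58). In the ileum it ran from 269.7 to 1555 after VSG and was 539.9 and 1344 after sham surgery.

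Tcf7, known from T cells and also made in crypts, was the least certain of the set. Duodenal values were 691, 153, 591 and 363 after VSG and 374 and 532 after sham surgery, and jejunal values 285, 196, 399.6 and 335 against 239 and 563. The groups overlapped in both segments, with log2 fold changes of −0.20 (SE 0.72) and −0.32 (SE 0.86). In the ileum VSG replicate 4 had 152 normalized counts and the other 3 libraries were listed at 0, which by counting error alone allows up to 2.06 in VSG replicate 5 and 3.49 and 6.21 in the sham libraries. Of 7 immune markers, the T cell markers Cd3e and Cd8a and the B cell marker Cd79a were listed at 0 in all duodenal libraries, and the others summed to 176 to 1674 normalized counts after VSG and 27.6 and 207 after sham surgery there. In the jejunum Cd8a and Cd79a were at 0 in all libraries but Cd3e was not, and the 7 summed to 215 to 695 after VSG and 144 and 587 after sham surgery. In the ileum Cd3e, Cd8a and Cd79a were again at 0 in all libraries. The 7 summed there to 78.6 and 374 after VSG and to 0 and 3.49 after sham surgery, without overlap. The part of immune cells in the Tcf7 values was not tested.

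Because a difference in one segment and not in another does not show that they differ, each mouse's jejunal level was compared with its own duodenal level. On the log2 scale Dvl1 was lower in the jejunum than in the duodenum by 0.65 to 1.80 in the 4 VSG mice, while 1 sham mouse was lower by 0.56 and the other higher by 0.79. The difference of VSG from sham was −1.18 (SE 0.49, 95% interval −2.29 to −0.07, limma adjusted p = 0.948), and all 4 VSG mice were below both sham mice. Its exact permutation p of 0.0667 is the smallest possible with 4 against 2. Lrp5 gave the opposite sign: its jejunal minus duodenal value was −0.51 to 0.11 in VSG mice and −1.13 and −0.63 in sham mice, a difference of 0.66 (SE 0.36, limma adjusted p = 0.948) that also reached an exact permutation p of 0.0667. Fzd5 was lower in the jejunum in all 6 mice, by 0.33 to 0.64 after VSG and by 0.12 and 0.19 after sham surgery, a difference of −0.29 (SE 0.29, exact permutation p = 0.133). VSG and sham mice overlapped for the other 7 genes. By limma 0 of the 10 passed an adjusted p under 0.2, against 0% of the 14718 genes tested, and 1 of the 10, Dvl1, had an unadjusted p under 0.05, against 4.1% of all genes. Both sham mice bear on the leading values: without sham replicate 1 the differences were −1.85 for Dvl1 and 0.41 for Lrp5, and without sham replicate 2 they were −0.51 and 0.91.

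**Figure D4:**
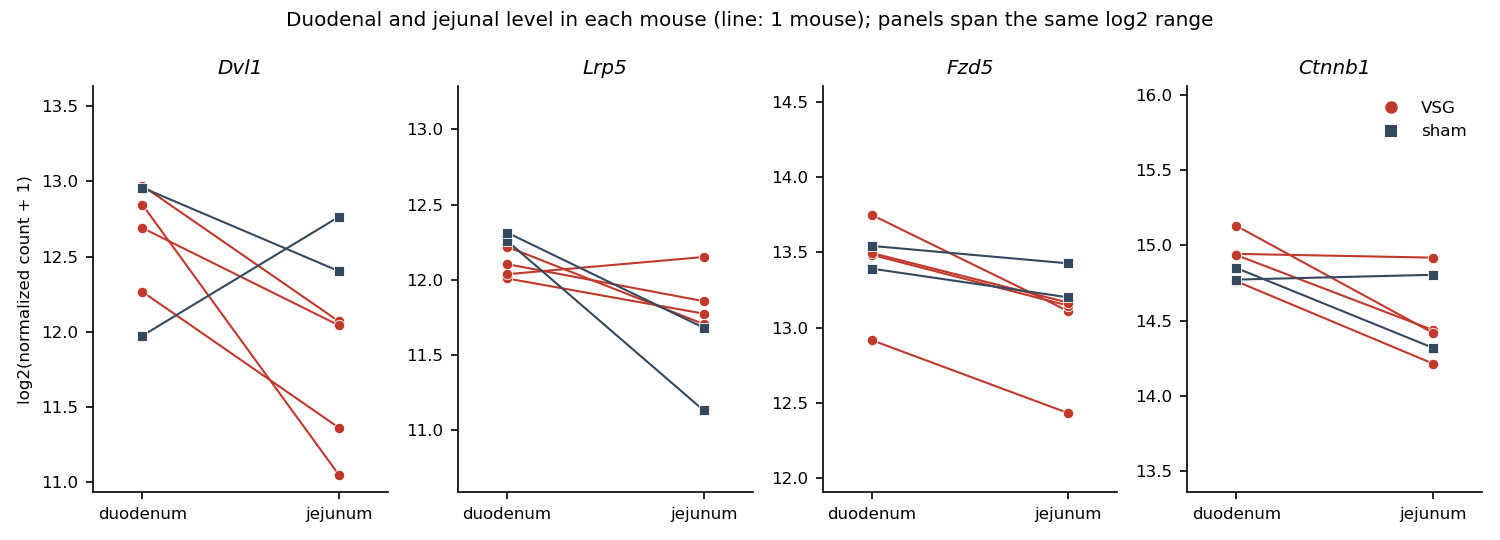
Log2(normalized count + 1) of Dvl1, Lrp5, Fzd5 and Ctnnb1 in the duodenum and jejunum of each of the 6 mice with both segments, 1 line per mouse, with panels of equal log2 range. For Dvl1 the 4 VSG mice are 0.65 to 1.80 lower in the jejunum, while 1 of the 2 sham mice is 0.79 higher.

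The rest of the pathway was read from a list of 80 other Wnt genes, also chosen with earlier results of these data known. Of them 58, 53 and 49 were tested in the duodenum, jejunum and ileum. By limma 0 of these were called in any segment, and 3 of 58, 5 of 53 and 2 of 49 had an unadjusted p under 0.05, beside 6.27%, 6.04% and 3.28% of all genes tested. Above 0 were 38, 30 and 28 log2 fold changes, beside 50.7%, 55% and 57% of all genes. In the ileum some of these signs were fixed by zeros. Fzd4, Fzd6 and Wnt3, among others, were listed at 0 in both sham libraries, and Wnt1 and Wnt9a, among others, in both VSG libraries. Without overlap, 3 of 58, 5 of 53 and 10 of 49 were higher after VSG and 3, 2 and 6 were lower. Beside these counts, 14.4%, 12.8% and 28.6% of all genes tested did not overlap. The genes named below were picked for their abundance or for their lack of overlap. Upstream of the receptors, Wls, which carries Wnt ligands to the cell surface, was the most abundant gene of the ligand list in every segment, and 10, 11 and 14 of its 21 genes were listed at 0 in all libraries of the duodenum, jejunum and ileum. Wnt5a had 51.4 to 686 normalized counts in duodenal VSG libraries against 0.539 and 22.8 in sham libraries (log2 fold change 4.22, SE 1.79, limma adjusted p = 0.769). Lgr4 and Rnf43, an R-spondin receptor and a ubiquitin ligase that removes Frizzled, were the most abundant genes of their list and overlapped between VSG and sham in the duodenum and jejunum. In the ileum Lgr4 overlapped, whereas Rnf43 (767 and 2058 after VSG, 245 and 651 after sham surgery, log2 fold change 1.65, SE 0.96) and Lgr5 (420.4 and 672 against 0 and 152) were higher after VSG in both libraries, as was Wls (957 and 1389.5 against 25.5 and 724). The next most abundant ligand genes overlapped: Porcn, which lipidates Wnts, in the duodenum, Wnt3 in the jejunum and Wnt9a, listed at 0 in 3 ileal libraries, in the ileum.

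The other Frizzled receptors were low. Fzd4, Fzd1 and Fzd8 were the most abundant of them and overlapped wherever they held that place. In the jejunum Fzd1 was lower after VSG (0 to 136 against 226 and 438) and Fzd2 higher (74.8 to 217 against 0 and 55.8), neither with an unadjusted p under 0.05 in limma. Among the inhibitors, Kremen1, which removes LRP6 with DKK proteins, and Sfrp5, a secreted Frizzled-like decoy, overlapped in the duodenum and jejunum. Dkk4, which binds LRP co-receptors, had 0 to 23.4 normalized counts after VSG and 59.7 and 90.5 after sham surgery in the jejunum. Ileal Kremen1 was at 439 and 482 after VSG against 20.7 and 281, and ileal Apcdd1, a membrane inhibitor, was listed at 0 in both VSG libraries and had 85.0 and 389 after sham surgery.

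In the β-catenin destruction complex Tnks2, a tankyrase that lowers AXIN, had 5666 to 6101 normalized counts in duodenal VSG libraries against 6992 and 10036 in sham libraries (log2 fold change −0.51, SE 0.22, limma adjusted p = 0.778). Gsk3b, a kinase of the complex, had 2203 to 3410.3 against 3857 and 4394 (−0.50, SE 0.27). Axin2, both a scaffold of the complex and a target of the pathway, overlapped in the duodenum and jejunum, and in the ileum was at 1377 and 1409 after VSG against 2816 and 3477 (−1.17, SE 0.50, limma adjusted p = 0.736). Csnk1a1, the CK1 kinase of the complex and its most abundant gene, overlapped in the duodenum and jejunum and was at 8636 and 9411 after VSG against 3955 and 7408 in the ileum, where Apc was also higher (3234 and 3504 against 552 and 3080.0). Bcl9, a co-factor that binds β-catenin in the nucleus, had 1673 to 4050.0 after VSG and 990.5 and 1541 after sham surgery in the duodenum (1.12, SE 0.44, limma adjusted p = 0.703), and was lower after VSG in both ileal libraries (416 and 1006 against 1202 and 3395), where its relative Bcl9l was higher (1157 and 1209 against 137 and 667). The most abundant nuclear partners were the co-repressors Tle3, Tle4 and, in the jejunum, Tle1. Tle3 overlapped in the duodenum and jejunum (log2 fold change 1.34, SE 0.54, limma adjusted p = 0.760 in the jejunum) and was lower after VSG in the ileum (1297 and 3418 against 5677 and 6938), while ileal Tle4 was higher (2083 and 2339 against 1148.5 and 1988).

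Among 15 target genes of the crypt the jejunum had most at an unadjusted p under 0.05 in limma: 11 of 14 tested were above 0, beside 55% of all genes, and 4 had such a p, beside 6.04%, all higher after VSG. The median of the 14 was 1.59 on the log2 scale. Ccnd1, a cyclin of the G1 phase, had 2442 to 6364 normalized counts after VSG and 272 and 2655 after sham surgery (2.40, SE 0.77, limma adjusted p = 0.760), and Nkd1, which restrains Dishevelled, had 58.1 to 275 against 0 and 12.4. Tnfrsf19, a crypt receptor, had 129 to 463 against 0 and 111. The target count rested on sham replicate 1, the library with Lgr5 at 0. Without it, a choice made after the data were seen, 7 of 14 targets were above 0, 0 had such a p in limma and the median was 0.02, and without sham replicate 2 the values were 12, 9 and 2.49. Marker lists of crypt cells shared that dependence. All 6 stem cell markers, which share Lgr5 and Ascl2 with the targets, were above 0 with 0 at an unadjusted p under 0.05 in limma, their sums overlapped (39237 to 55873 after VSG, 11822 and 52590 after sham surgery), and without sham replicate 1 the count was 1 of 6 and the median went from 1.14 to −0.17. The Paneth list had 6 of 6 above 0, 1 with such a p, and 1 of 6 without that library, and the tuft list 6 of 6 with 3 such p-values and a median of 3.65, then 4 of 6 and 0.06. Goblet markers were above 0 in 6 of 6 with 3 such p-values, and in 6 of 6 with 0 such p-values without it. The part of these cells in the values of the targets was not tested. In the duodenum 8 of 15 targets were above 0 with a median of 0.05 and 0 had such a p in limma, while Ccnd1 ran from 3900.2 to 6087 after VSG, above its 3403 and 3790.5 in sham mice. In the ileum 9 of 14 were above 0 with a median of 1.17 and 1 had such a p in limma. Ascl2 and Nkd1 were at 0 in both ileal sham libraries, so their signs could not be negative. There 4 targets were higher without overlap and 1, Axin2, was lower, beside 28.6% of all genes without overlap. Ephb2, a receptor of crypt cells, was at 867 and 2135 after VSG against 2.63 and 79.8, and Ascl2, a stem cell transcription factor, was at 79.2 and 225 and listed at 0 in both sham libraries. Without VSG replicate 4 the ileal count was 5 of 12 with a median of −0.86, and without VSG replicate 5 it was 12 of 14 with a median of 3.87. All 6 stem cell markers were above 0 in the ileum, summing to 10076 and 17526 after VSG against 1639 and 6139. Goblet sums were also higher without overlap, while enterocyte, enteroendocrine, Paneth and tuft sums overlapped. The 3 markers of ileal epithelium, Fabp6 among them, were all lower (sums of 35212 and 83018 against 162166 and 228303). The part of such cells in the ileal values was not tested.

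**Figure D5:**
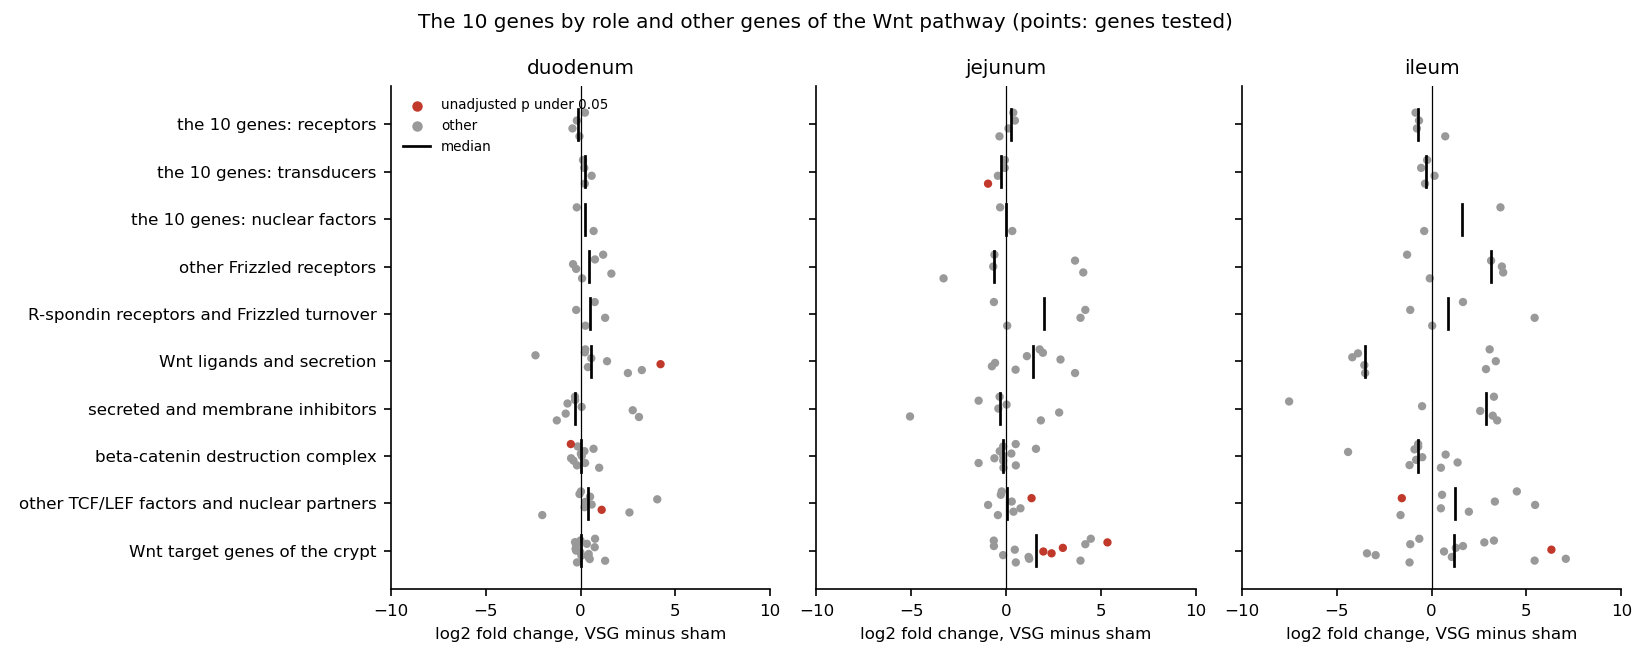
Log2 fold change of VSG minus sham for each gene tested, by list and segment, with the median as a black line and red points for an unadjusted p under 0.05 in limma. In the duodenum the list medians run from −0.29 (inhibitors) to 0.57 (ligands), and in the jejunum the 4 red points of the target list lie to the right, where 11 of its 14 genes are above 0.

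The genes whose levels ran most like those of β-catenin were searched among 10712 genes, over the 16 libraries on log2 values centred within each segment, as a description in which libraries of the same mouse are not independent. Zfp445, Alkbh4 and Paqr5 had the highest Spearman correlations with Ctnnb1 (0.83, 0.826 and 0.779), and Gatad2a, Arid5a and Tecpr1 with Tcf7l2 (0.815, 0.794 and 0.779). The set itself did not run together: with Ctnnb1, the other 8 genes that could be included had correlations from −0.318 (Fzd5) to 0.318 (Dvl1), and with Tcf7l2 from −0.200 (Lrp6) to 0.376 (Dvl1). Tcf7 was too low in the ileum to be included.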

How the data were processed

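RNA-Seq libraries of sorted GFP+ ISCs were used as deposited, grouped by their labels. Reads had been aligned by STAR (v2.5.3a) to the mm10 genome and quantified per transcript by Salmon (v0.6.0). The authors left out libraries with low mapping and deposited normalized counts per gene, signal values made with DESeq2 in each segment on its own. Their tables of fold changes and p-values of VSG against sham were not used. Of low values, 74.2% to 92.8% per library were whole multiples of the most frequent value above 0 (tolerance 0.01), so no count model was run. That value, taken as what 1 read is worth (0.586 to 2.07), gave the implied depth, and limits from a 0 are 3 reads, for counting error only.

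Limma 3.58.1 (R 4.3.3), with a trend of variance, was run per segment over genes with a mean above 10 (16867, 15857 and 13853 genes) with a pseudocount of 1, which understates changes of low genes, and Benjamini-Hochberg adjustment. It was tested on simulated data. Exact permutation tests were two-sided over 15 splits (4 against 2) or 6 (2 against 2). Exon lengths and positions came from GENCODE M21. The genes and the pathway and marker lists were chosen with earlier results of these data known. Named were the 10 genes, and from each other list any called gene, the 2 most abundant, and up to 2 per segment with the largest change without overlap. For likeness, 3 genes each were named among those with a mean above 50 in every segment. The alternatives changed 1 choice at a time: the pseudocount (0.5 or 10), the filter (none or 50), scaling (quantile or equal totals), the variance trend, the adjusted p (0.05), the libraries (each left out) and a block on replicate number. Other software was matplotlib 3.10.9, scipy 1.17.1, pandas 2.3.3, numpy 2.4.6 and Python 3.11.15.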

Additional observations from a re-analysis of the deposited data

Results flagged for a closer look

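Fzd5 in the jejunum had 1 VSG library far from the other 3: VSG replicate 1 with 5526 normalized counts, the library that also held Fabp6 at 196951. Dvl2 in the jejunum had VSG replicate 4 at 1421, far above the other 3 VSG libraries. Both gaps passed Dixon's 95% value for 4 samples, a test applied to 20 groups of which chance flags about 1 in 20.

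The direction differed between segments for a pair of genes. Lrp5 was below both sham libraries in every duodenal VSG library and above them in every jejunal one, and the difference of 0.6587 between jejunum and duodenum on the log2 scale missed the threshold (SE 0.36, limma adjusted p = 0.948). Lrp5 was again below in the ileum, with a log2 fold change of −0.6693 against 0.46 in the jejunum, and Fzd5 was above in the ileum (0.7146) and below in the jejunum (−0.35). The differences between ileum and jejunum were not tested, since sham replicates 1 and 2 and VSG replicate 4 were the only mice with both.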

How the results depend on the processing

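Genes called over the whole table were few and unstable, and 0 of the 10 were among them with all libraries kept. Against 4 calls in the duodenum, 2 in the jejunum, 0 in the ileum and 0 for the difference between segments, limma without a variance trend gave 43, 61, 463 and 10. A pseudocount of 10 gave 10 in the duodenum and 3 in the ileum. A pseudocount of 0.5, equal totals, no filter, a filter at a mean above 50 and an adjusted p under 0.05 each gave 0 in the duodenum, and the last gave 1 in the jejunum. With the replicate number as a block, 0 were called in the duodenum and 0 in the jejunum, but the numbers do not pair the mice (correlation of deviations −0.049 to 0.054, 2 pairs) and the ileum shares too few. Leaving out 1 library gave 0 to 259 calls in the duodenum (259 without sham replicate 1, 47 without sham replicate 2, 12 without VSG replicate 1 and 0 without VSG replicate 4), 1 to 2710 in the jejunum (2710 without sham replicate 2, 16 without sham replicate 1 and 1 without any VSG replicate), 0 to 631 in the ileum (625 and 631 without VSG replicate 4 and 5) and 0 to 815 for the difference (815 without sham replicate 2, 1 without VSG replicate 1). A lone library is assumed there to vary like the other group. Such fits called Tcf7l2 in the duodenum, Lrp5 in the jejunum and, without VSG replicate 5, Tcf7 in the ileum (7.25). The last is VSG replicate 4 alone against sham libraries at 0, with no spread to test it by.

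The median of the 10 moved to 0.16 with equal totals in the jejunum, and ran from −0.039 to 0.18, −0.26 to 0.14 and −0.74 to 0.35 without 1 library in the duodenum, jejunum and ileum. The sign of the log2 fold change was the same under all alternatives for Ctnnb1, Dvl3, Fzd7, Lrp5 and Lrp6 in the duodenum, Dvl1, Dvl2, Fzd5, Lrp5 and Lrp6 in the jejunum, Ctnnb1, Fzd5 and Lrp5 in the ileum, and Dvl1, Dvl2, Fzd5 and Lrp5 for the difference. Ileal Tcf7 was above 0 wherever it was tested, but with both sham libraries at 0 its sign could not be negative. It was not tested with a filter at a mean above 50 or without VSG replicate 4. Quantile normalization turned Fzd5 in the duodenum to 0.012, and Fzd7 and Ctnnb1 in the jejunum to −0.036 and 0.083. Equal totals gave 0.025 for duodenal Fzd5, 0.15 and 0.16 for jejunal Dvl3 and Ctnnb1, and 0.030 for the difference of Tcf7. The block turned jejunal Ctnnb1 to 0.12 and Tcf7l2 to −0.22. Without 1 library the values that changed sign ran, in the duodenum, from −0.17 to 0.11 for Fzd5, −0.27 to 0.72 for Dvl1, −0.099 to 1.27 for Dvl2, −0.41 to 1.79 for Tcf7l2 and −0.48 to 0.25 for Tcf7. In the jejunum they ran from −0.28 to 0.53 for Fzd7, −0.21 to 0.14 for Dvl3, −0.31 to 0.18 for Ctnnb1 and −0.93 to 0.30 for Tcf7. In the ileum they ran from −1.59 to 0.025 for Fzd7, −1.85 to 0.15 for Lrp6, −1.34 to 0.64 for Dvl1, −0.39 to 0.70 for Dvl2, −1.55 to 0.44 for Dvl3 and −1.66 to 0.87 for Tcf7l2. For the difference they ran from −0.034 to 1.13 for Fzd7, −0.055 to 0.38 for Lrp6, −0.40 to 0.029 for Dvl3, −0.48 to 0.084 for Ctnnb1, −1.23 to 0.51 for Tcf7l2 and −0.48 to 0.25 for Tcf7.

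Equal totals shifted the median of all genes to 0.34 in the jejunum and 0.35 in the ileum, and quantile normalization to 0.033 and 0.038. In the jejunum sham replicate 1 totalled 47.1 M normalized counts and the other libraries 33.5 to 34.5 M, so equal totals scaled it down against them. Why its total was higher, and the cause of the other changes, was not tested. With 2 sham mice, and with 4 libraries in all in the ileum, intervals are wide and the smallest exact permutation p is 0.0667 or 0.333. The paper gives all animals as single-housed. Nothing says that libraries of a group came from separate days, so p-values measure the spread between these mice only. Ileal Tcf7 was listed at 0 in 3 of 4 libraries. These were VSG replicate 5 (32.0 M implied reads) and sham replicates 1 (21.5 M) and 2 (10.9 M), against 36.4 M in VSG replicate 4. The part of depth in these values was not tested.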
